A study of Homo sapiens with 4 samples.

Results

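SnoRNA host genes carry small nucleolar RNAs (snoRNAs) in their introns, and most of the RNA left after splicing encodes no protein in the noncoding members of the family. The genes described here were the 10 rows of the count table named GAS5, SNHG1, SNHG5, SNHG6, SNHG7, SNHG8, SNHG12, SNHG15, SNHG16 or ZFAS1, of 58735 genes in all. They were chosen by name, and their change was set beside that of the 79 cytosolic ribosomal protein genes. Of the 10, 9 passed the filter on low counts. SNHG6 was listed at 0 counts in all 4 samples.

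The samples were HCC1954 cells, an established human breast cancer line, with 2 samples carrying a control hairpin (shCON, scrambled) and 2 carrying a hairpin against the palmitoyltransferase gene ZDHHC15 (shZDHHC15). Both groups carried a GIPZ hairpin vector. The design text speaks of stable knockdown, while the treatment protocol describes plasmid transfection with harvest after 36 h. The study's supplementary methods mention monoclonal cultures chosen by western blot, without saying which samples came from them. The labels do not say whether the samples of a group were separate cultures or, for shZDHHC15, separate hairpins. The p-values therefore measure the spread between these samples, which may be technical.

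In excised form, C/D box snoRNAs guide the methylation and H/ACA box snoRNAs the pseudouridylation of ribosomal RNA. Many host transcripts begin with a 5′ terminal oligopyrimidine (TOP) tract, a C followed by a run of pyrimidines, as ribosomal protein and translation factor mRNAs do. TOP transcripts are controlled together in translation and stability through mTOR and the binding protein LARP1. Spliced noncoding host RNAs are also known substrates of nonsense-mediated decay (NMD), which removes RNAs with short reading frames as ribosomes read them.

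The 5′ ends of the host genes are shown because the TOP tract is what groups them with ribosomal protein genes. RefSeq promoter windows (GRCh38.p14) were found for 8 of the 10 genes, and none was found for SNHG15. SNHG6 is not shown. Each line runs 5′ to 3′ on the gene's strand from 15 bases before the annotated start, followed by the start base and the next 24. Capitals mark a C lying within 5 bases of the start and followed by at least 4 pyrimidines.
GAS5, chr1:173869021-173869060, minus strand: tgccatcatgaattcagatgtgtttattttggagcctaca
SNHG1, chr11:62855861-62855900, minus strand: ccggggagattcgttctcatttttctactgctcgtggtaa
SNHG5, chr6:85678709-85678748, minus strand: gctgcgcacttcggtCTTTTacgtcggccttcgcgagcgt
SNHG7, chr9:136728160-136728199, minus strand: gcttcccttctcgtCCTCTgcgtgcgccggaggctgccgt
SNHG8, chr4:118278747-118278786, plus strand: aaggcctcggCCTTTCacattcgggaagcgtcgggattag
SNHG12, chr1:28581849-28581888, minus strand: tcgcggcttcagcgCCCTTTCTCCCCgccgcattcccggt
SNHG16, chr17:76557749-76557788, plus strand: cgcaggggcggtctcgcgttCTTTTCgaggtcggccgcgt
ZFAS1, chr20:49278627-49278666, plus strand: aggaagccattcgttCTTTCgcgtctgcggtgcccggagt

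Such a tract was present in 6 of the 8 host gene windows (75%) and in 51 of the 63 ribosomal protein windows found (81.0%). Over all 27305 promoters of the table the share was 21.1%, read on the gene's strand alone. Over the 121 GENCODE 29 transcripts annotated for the 8 genes the match, then required at the first base, was rarer, with 20 of them (16.5%) against 166 of 814 ribosomal protein transcripts (20.4%) and 2.41% of all transcripts. It was found in 0 of 4 transcripts of SNHG7 and 1 of 25 of SNHG1. Among the 8 windows SNHG12 held the longest tract, of 12 bases. The RefSeq start of GAS5 lies upstream of a start that 6 of its 29 GENCODE 29 transcripts share and that opens with a tract. This start is shown beside that of 2 SNHG16 transcripts, since the first 11 bases of both are identical.
GAS5, chr1:173867965-173867989, minus strand: CTTTTCgaggtaggagtcgactcct
SNHG16, chr17:76557769-76557793, plus strand: CTTTTCgaggtcggccgcgtggctg
No match in a window says only that these letters are not there.

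Library totals lay between 17560982 and 19118704 counts, with 2.07% to 2.63% of counts on mitochondrial genes. ZDHHC15 received 17617 and 15716 counts in shCON cells and 0 in each shZDHHC15 sample. Such a 0 allows up to 3 counts a sample for counting error alone. It was not read as complete loss of the RNA. All 6 epithelial breast markers listed were detected, with a summed level of 13604 to 14611 CPM in shCON and 7966 to 7992 CPM in shZDHHC15 samples. The lower sum lay mostly in KRT8 (5775 and 6342 against 1853 and 2084 CPM) and KRT18 (1569 and 1715 against 513 and 583 CPM). CDH1 overlapped between groups (378 and 353 against 360 and 347 CPM), and KRT19 was higher in shZDHHC15 samples (18.8 and 20.1 against 27.0 and 25.8 CPM). Of 12 leukocyte and 8 fibroblast markers, 5 and 1 had 0 counts throughout, the T cell receptor complex genes CD3D and CD3E among them, and the summed leukocyte level was 1.42 to 1.59 CPM in shCON and 2.14 to 2.74 CPM in shZDHHC15 cells. The summed fibroblast level was 5.98 to 7.41 and 8.66 to 11.5 CPM. The part of these marker shifts in the results was not tested. CPM are counts per 1000000, scaled by edgeR's TMM factors.

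After ZDHHC15 knockdown the snoRNA host transcripts were less abundant. Their summed level was 1131 and 1215 CPM in the shCON samples and 546 and 634 CPM in the shZDHHC15 samples, a ratio of 0.503. All 9 tested genes were lower at an adjusted p under 0.05 (edgeR's quasi-likelihood test, Benjamini-Hochberg over 15817 genes), where 20.3% of all tested genes were called lower and 42% in either direction. The median log2 fold change, shZDHHC15 over shCON, was -0.98 for the 9 host genes, -0.45 for the 79 ribosomal protein genes and 0.02 for all tested genes. None of the 9 had overlapping groups, as held for 35.3% of all tested genes in the lower direction. Of the 9, 3 (SNHG1, SNHG5 and SNHG7) passed a log2 fold change below -1, as did 3.79% of tested genes. In these bulk samples, fewer cells with a transcript and less of it per cell cannot be told apart.

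**Figure D1:**
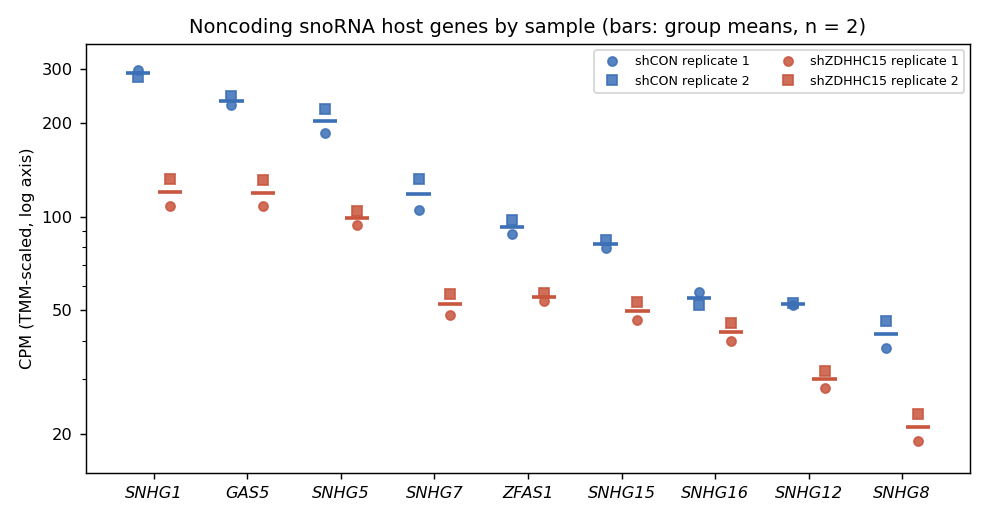
TMM-scaled CPM on a log axis for the 9 tested host genes in each sample, with circles for replicate 1, squares for replicate 2 and bars for group means (n = 2). In each gene both shZDHHC15 samples lie below both shCON samples, by the widest margin in SNHG1 (mean 289 against 120 CPM) and the narrowest in SNHG16 (54.6 against 42.6 CPM).

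Among hosts of C/D box snoRNAs, SNHG1 fell most. SNHG1 (ENSG00000255717, chr11:62851988-62855914, minus strand, a processed transcript) holds 7 annotated snoRNA genes in the table, SNORD22, SNORD25, SNORD26, SNORD27, SNORD28, SNORD30 and RF00099. Its level was 296 and 283 CPM in shCON and 108 and 132 CPM in shZDHHC15 samples. The samples of a group lay close together and the groups far apart. The change was -1.27 ± 0.105 in log2 units (fold change ± SE, edgeR adjusted p = 2.77e-07), which leaves 41.5% of the control level. Of all tested genes, 379 had a lower log2 fold change, and none of the 79 ribosomal protein genes did.

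GAS5 (ENSG00000234741, chr1:173863900-173868882, minus strand), named for its accumulation in growth-arrested cells and a known host of C/D box snoRNAs, holds no snoRNA row in this table. It was measured at 229 and 245 CPM in shCON and at 108 and 131 CPM in shZDHHC15 samples. The lower control sample was still well above the higher knockdown sample. The log2 fold change, -0.98 ± 0.105 (SE, edgeR adjusted p = 3.89e-06), corresponds to 50.6% of control.

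SNHG5 (ENSG00000203875, chr6:85660950-85678748, minus strand), the host of SNORD50B, had 187 and 222 CPM in shCON and 93.9 and 104 CPM in shZDHHC15 samples. The gap within shCON was wider than that within shZDHHC15, and the groups did not overlap. SNHG5 changed by -1.04 ± 0.106 log2 units (SE, edgeR adjusted p = 2.51e-06), leaving 48.5% of control.

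ZFAS1 (ENSG00000177410, chr20:49278178-49295738, plus strand), the host of the SNORD12 family, runs antisense to ZNFX1. It had 87.8 and 97.5 CPM in shCON and 53.7 and 57.0 CPM in shZDHHC15 samples. Replicates lay closer to each other than to the other group. ZFAS1 changed by -0.74 ± 0.104 log2 units (SE, edgeR adjusted p = 5.12e-05), and 59.8% of its control level remained. Of its merged exon bases, 46.9% also belong to another annotated gene.

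SNHG16 (ENSG00000163597, chr17:76557766-76565348, plus strand), the host of SNORD1A, SNORD1B and SNORD1C, changed least of the 9. It had 57.4 and 51.9 CPM in shCON and 39.8 and 45.4 CPM in shZDHHC15 samples. The groups did not overlap but lay close, at 51.9 and 45.4 CPM for their nearest samples. SNHG16 changed by -0.36 ± 0.114 log2 units (SE, edgeR adjusted p = 0.0199). It was no longer called when libraries were scaled by size only (adjusted p = 0.0672), when low genes were kept in (adjusted p = 0.0681), and without shZDHHC15 replicate 1 (-0.27, adjusted p = 0.217, edgeR).

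The hosts of H/ACA box snoRNAs fell as well. SNHG7 (ENSG00000233016, chr9:136721366-136728184, minus strand), the host of SNORA17A and SNORA17B, had 105 and 132 CPM in shCON and 48.5 and 56.5 CPM in shZDHHC15 samples. Both shZDHHC15 values were well below the lower shCON value. Its change of -1.18 ± 0.123 log2 units (SE, edgeR adjusted p = 3.34e-06) was also below that of every ribosomal protein gene. Another gene covers 31.4% of its exon bases, mostly FAM69B on the other strand.

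SNHG8 (ENSG00000269893, chr4:118278709-118279823, plus strand), the host of SNORA24, had 37.8 and 46.2 CPM in shCON and 19.1 and 23.1 CPM in shZDHHC15 samples. The groups were apart by more than the spread within either, and SNHG8 changed by -0.99 ± 0.138 log2 units (SE, edgeR adjusted p = 4.93e-05). SNHG15 (ENSG00000232956, chr7:44983023-44986961, minus strand), the host of SNORA9, had 79.3 and 84.4 CPM in shCON and 46.6 and 53.0 CPM in shZDHHC15 samples. Its groups were likewise apart, with a change of -0.72 ± 0.107 log2 units (SE, edgeR adjusted p = 9.38e-05), a smaller change than that of SNHG7 or SNHG8, although these differences between host genes were not tested.

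SNHG12 (ENSG00000197989, chr1:28578538-28583132, minus strand) holds snoRNAs of both classes, SNORA16A, SNORA44, SNORA61 and SNORD99. Its shCON samples were nearly identical at 52.1 and 52.9 CPM, and the shZDHHC15 samples had 28.1 and 31.9 CPM. SNHG12 changed by -0.81 ± 0.114 log2 units (SE, edgeR adjusted p = 5.63e-05), leaving 57.2% of control.

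SNHG6 (ENSG00000245910), the host of SNORD87, had 0 counts in every sample, which allows up to 3 counts a sample for counting error alone. Other annotated genes cover 36.4% of its exon bases and leave 793 to it alone. MCMDC2, which shares 365 exon bases with SNHG6, had 7 and 6 counts in shCON and 0 and 3 in shZDHHC15 samples. ZFAS1, covered to 46.9%, had 1000 to 1645 counts. EEF1G, a translation elongation factor gene covered to 99.9% by AP002990.1, keeps only 2 bases to itself. It was also at 0 in all 4 samples, and AP002990.1 itself received 97 to 140 counts. Why SNHG6 had 0 counts was not tested. The 0 of SNHG6 was not read as absence of the RNA, and no fold change is given for it.

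Few reads were counted on the snoRNAs themselves. The table holds 26 snoRNA rows inside the 10 host genes, of which the 22 that overlap host exons had 0 counts in every sample. The 4 that lie outside host exons all had counts. Whether the overlap itself led to the zeros of the 22 was not tested. SNORD12B, within an intron of ZFAS1, had 21 and 7 counts in shCON and 29 and 44 in shZDHHC15 samples, and SNORD12C had 17 and 7 against 21 and 20. SNORD99 in SNHG12 had 11 and 18 counts in shCON and 2 and 8 in shZDHHC15 samples, and SNORD1B in SNHG16 had at most 5. These counts are too few to follow snoRNA levels, and they cannot be told apart from intron reads of unspliced host RNA.

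Compared per length (TPM computed from the counts and the merged exon length in the table), the 9 genes spanned a wide range in shCON cells. SNHG1 stood highest at 261 ± 18.7 TPM (SD, n = 2), followed by SNHG5 at 245 ± 20.3, and the samples of these genes overlapped. GAS5 came next at 220 ± 2.24 TPM. SNHG8 (153 ± 15.6 TPM) and ZFAS1 (139 ± 4.98 TPM) overlapped, then came SNHG7 (92.1 ± 11.5 TPM), SNHG15 (75.8 ± 0.364 TPM), SNHG12 (41.6 ± 1.15 TPM) and SNHG16 (34.5 ± 3.79 TPM). In shZDHHC15 cells the order at the top was SNHG5 (129 ± 9.38 TPM), GAS5 (120 ± 16.0 TPM) and SNHG1 (116 ± 16.2 TPM), with overlap at each step. SNHG16 (28.9 ± 2.68 TPM) stood above SNHG12 (25.6 ± 2.27 TPM), again overlapping. The merged exons include retained introns, so a gene's TPM depends on how many such introns its models hold. They also include bases shared with other annotated genes, from 1.16% in GAS5 to 33.4% in SNHG16 and 46.9% in ZFAS1. The 22 snoRNA rows overlapping host exons had 0 counts, so shared bases may add length without counts. The order of the genes with shared bases left out was not computed.

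Ribosomal protein genes, whose mRNAs are the classical TOP transcripts, were lower too. Their summed level was 50065 and 57074 CPM in shCON and 38043 and 39264 CPM in shZDHHC15 samples, a ratio of 0.722. Of the 79 genes, 67 were lower and 0 higher at an adjusted p under 0.05 (edgeR), and 12 did not pass. RPS2, a small subunit protein gene, fell most (-1.04), followed by RPS26 (-1.03). RPL4 (-0.24) was among the genes called with the smallest changes. The 28 ribosomal protein genes that hold a snoRNA row in the table had a median of -0.39 and the other 51 a median of -0.45.

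Relative to the ribosomal protein genes, most of the host genes fell further. For every 1000 counts on ribosomal protein genes there were 22.6 and 21.3 counts on the host genes in shCON and 14.4 and 16.2 in shZDHHC15 samples. To test each gene, the fit was repeated with the ribosomal protein total of each sample as its scale, so that a fold change of 0 means the same change as that total. On this scale 5 of the 9 host genes were called lower (edgeR, adjusted p under 0.05) and 0 higher, where 3.77% of all tested genes were lower, 48.1% higher and 51.9% either. The large share of higher genes follows from the scale, on which the median of all tested genes is 0.48. Of the 79 ribosomal protein genes themselves, 6 were lower and 10 higher on this scale. RPS2 (-0.57) and RPS26 (-0.56) were among the 6.

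**Figure D2:**
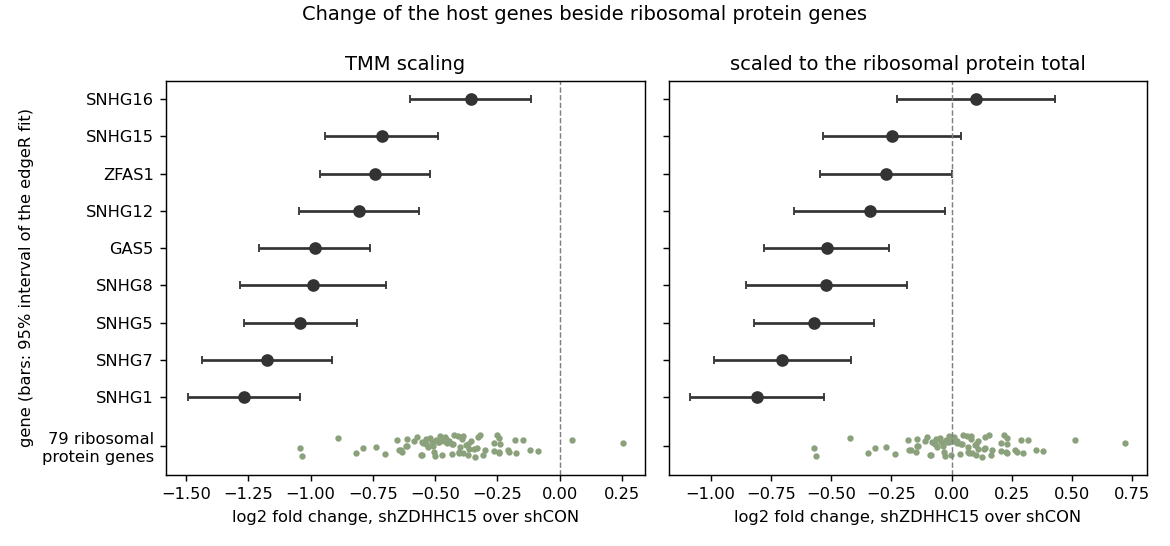
Log2 fold change of each tested host gene with its 95% interval, beside the 79 ribosomal protein genes as points, under TMM scaling (left) and scaled to the ribosomal protein total (right). On the left all 9 intervals lie below 0. On the right the intervals of SNHG15, SNHG16 and ZFAS1 reach 0 or cross it.

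SNHG1 differed most from the ribosomal protein total, by -0.81 on the log2 scale (95% interval -1.08 to -0.53, adjusted p = 0.000215, edgeR). SNHG7 followed at -0.70 (-0.99 to -0.42, adjusted p = 0.000737, edgeR). SNHG5 was at -0.57 (adjusted p = 0.00125), GAS5 at -0.52 (adjusted p = 0.00301) and SNHG8 at -0.52 (adjusted p = 0.0131), all by edgeR. These 5 genes thus lost more than the ribosomal protein total did.

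The other 4 host genes did not pass the threshold against the ribosomal protein total, and for 3 of them the call depended on the setting. SNHG12 was at -0.34 (95% interval -0.66 to -0.03, adjusted p = 0.066, edgeR) and ZFAS1 at -0.27 (interval -0.55 to 0.0004, adjusted p = 0.087). SNHG15 was at -0.25 (interval -0.54 to 0.04, adjusted p = 0.135, edgeR). SNHG16 lay on the other side of 0, at 0.10 (interval -0.23 to 0.43, adjusted p = 0.593, edgeR), and its 11.5 and 9.09 counts per 10000 ribosomal protein counts in shCON overlapped the 10.5 and 11.6 in shZDHHC15 samples. With the replicate number as a block, SNHG12 (adjusted p = 0.0242) and ZFAS1 (adjusted p = 0.0442) were called lower as well (edgeR). Without shCON replicate 2, SNHG12 joined the 5 (-0.42, adjusted p = 0.0206, edgeR). Without shZDHHC15 replicate 1, 3 genes remained below the ribosomal protein total (SNHG1, SNHG5 and SNHG7), and without shZDHHC15 replicate 2 there were 4 (GAS5, SNHG1, SNHG5 and SNHG7). With the median ribosomal protein gene in place of the total, 8 were lower, all but SNHG16, with adjusted p = 0.0139 for SNHG12, 0.0427 for SNHG15 and 0.0233 for ZFAS1 (edgeR).

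**Figure D3:**
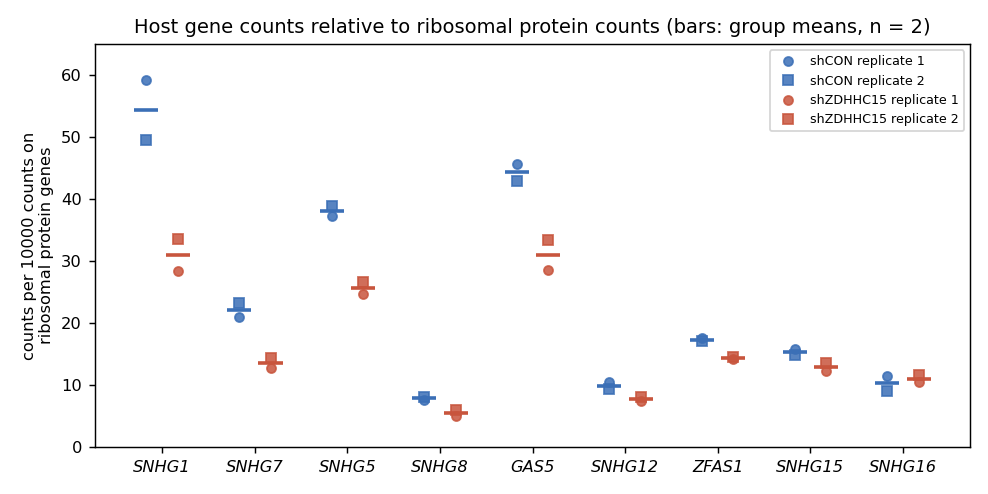
Counts on each host gene per 10000 counts on ribosomal protein genes in each sample, ordered by fold change, with bars for group means (n = 2). SNHG1 stood at 59.2 and 49.5 in shCON and 28.4 and 33.6 in shZDHHC15 samples, while the samples of SNHG16 overlapped between groups.

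Further noncoding host transcripts, outside the 10, moved the same way. Of 17 listed, 13 were tested, 12 were lower and 0 higher at an adjusted p under 0.05 (edgeR), with a median log2 fold change of -0.80. DANCR fell most, from 60.4 ± 4.77 to 17.7 ± 3.41 CPM (SD, n = 2), or -1.77 ± 0.136 log2 units (SE, edgeR adjusted p = 1.39e-07). SNHG9 followed at -1.53, from 44 and 73 counts in shCON to 16 and 28 in shZDHHC15 samples. SNHG3 (-0.69) and SNHG17 (-0.60) changed least among those called. Relative to the ribosomal protein total, 5 of the 13 were lower and 0 higher (edgeR, adjusted p under 0.05), with a median of -0.33. Over all tested genes, 3.77% were lower and 48.1% higher on that scale. By contrast, of all 1651 noncoding genes tested other than the 10 (lincRNA, antisense or processed transcripts, further hosts included), 13.2% were called lower and 10.8% higher, with a median of -0.04. Protein-coding genes that hold a snoRNA row, ribosomal protein genes left out, had a median of 0.03, with 41 lower and 40 higher of 175 tested.

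Translation factors and other protein-coding TOP genes changed less than the host transcripts. Of 14 tested, 5 were lower and 0 higher (edgeR, against 20.3% and 21.7% of all tested genes), with a median log2 fold change of -0.18. EEF1D, an elongation factor subunit, fell most at -0.71 and RACK1, a protein of the small ribosomal subunit, by 0.43 on the log2 scale. EIF3F (-0.36) and EEF1B2 (-0.27) also passed the threshold. The count of 5 was 7 with the replicate block and 4 with library size only or low genes kept in. It varied in both directions with a sample left out. EEF1A1, which encodes the main elongation factor, was at 0.08 (adjusted p = 0.463, edgeR).

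**Figure D4:**
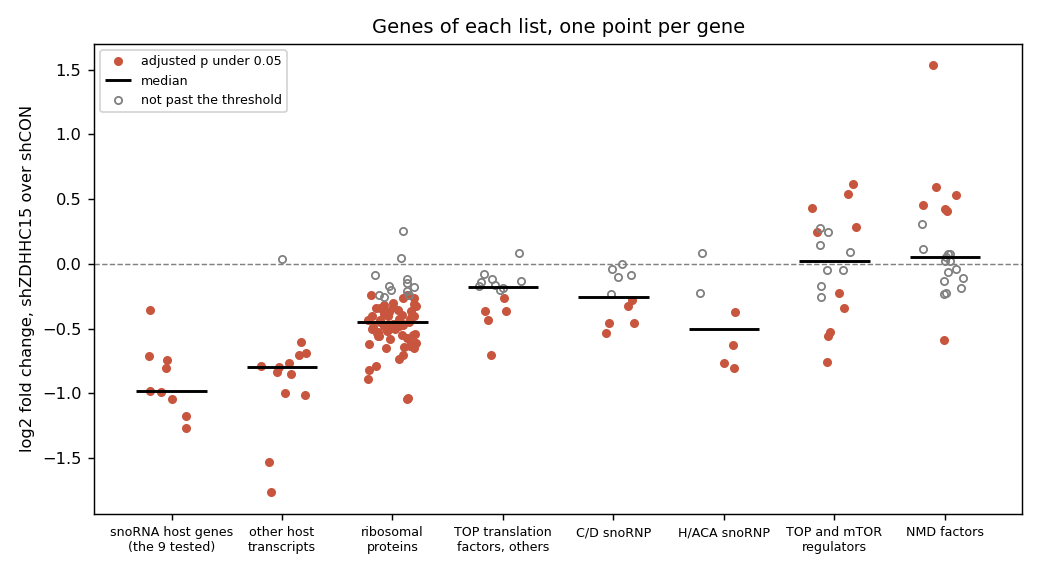
Log2 fold change of every tested gene of each list, filled where the adjusted p was under 0.05, with the median as a bar. Both sets of noncoding host transcripts sit lowest (medians -0.98 and -0.80). H/ACA (-0.50), ribosomal protein (-0.45) and C/D genes (-0.26) lie between, as do translation factors and other TOP genes (-0.18). The regulators and NMD factors spread around 0.

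Of the proteins that assemble with the snoRNAs, H/ACA components were lower in 4 of 6 and C/D components in 5 of 10, with 0 higher in either list (edgeR), beside 20.3% lower and 21.7% higher over all tested genes. The H/ACA core genes GAR1 (-0.80), NHP2 (-0.77), NOP10 (-0.63) and DKC1 (-0.38), which encodes the pseudouridine synthase dyskerin, were the 4. Among C/D genes, the assembly factors ZNHIT6 (-0.53), RUVBL2 (-0.46) and RUVBL1 (-0.33) and the core protein gene NOP56 (-0.28) were lower, as was FBL (-0.45), which encodes the methyltransferase fibrillarin. The median log2 fold change was -0.50 for H/ACA and -0.26 for C/D genes. Scaling by library size only, or keeping low genes in, gave 3 C/D calls in place of 5. Upper-quartile factors or the replicate block gave 6, and the count varied in both directions with a sample left out.

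Regulators of TOP transcripts went in both directions, with 5 of 18 higher and 5 lower (edgeR), counts near the 21.7% higher and 20.3% lower over all tested genes. MTOR rose by 0.62 on the log2 scale and TSC1, a negative regulator of mTOR complex 1, by 0.54. EIF4EBP1, which encodes a translation repressor inactivated by mTOR, fell by 0.76, and MLST8, an mTOR subunit gene, by 0.56. LARP1 was at 0.25 (adjusted p = 0.0317, edgeR), and this call was among those lost under some alternatives (adjusted p up to 0.215). The higher count of 5 was 3 with upper-quartile factors or low genes kept in, 6 with the replicate block and 7 with library size only. The lower count of 5 was 3 with library size only or low genes kept in, and 6 with upper-quartile factors or the replicate block. Both counts were lower or the same when a sample was left out. RNA levels do not measure the activity of these proteins.

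Of 21 genes of the NMD machinery, 6 rose and 1 fell by the same test, with a median log2 fold change of 0.05. The share that rose was near the 21.7% of all tested genes called higher. XRN1, the 5′ to 3′ exonuclease, rose most, from 14.4 ± 4.61 to 41.9 ± 6.33 CPM (SD, n = 2; log2 fold change 1.53, adjusted p = 8.08e-06, edgeR). SMG1, the kinase that phosphorylates UPF1, was at 0.60, and UPF3B at 0.41. Both calls were among those lost under some alternatives. Over the main fit and its 12 alternatives the log2 fold change ranged from 0.31 to 0.92 for SMG1 and from 0.27 to 0.54 for UPF3B. The shCON samples of SMG1 lay apart, at 125 and 80.9 CPM. SMG9, a regulator of SMG1, fell by 0.59 on the log2 scale, and UPF1 itself was at -0.11 (adjusted p = 0.364). The count of 6 was 2 with low genes kept in and 3 without shCON replicate 2 or without shZDHHC15 replicate 1.

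Genes that start beside a host gene on the opposite strand did not share a direction. Such a neighbour was annotated within 2000 bases of the start of 4 host genes. The nearest was taken for each, and 3 of these were tested. SLC3A2, the heavy chain of amino acid transporters, starts 188 bases from SNHG1 and also fell (-0.89 ± 0.0932 log2 units, SE, edgeR adjusted p = 3.46e-06), from 1504 ± 137 to 813 ± 51.8 CPM (SD, n = 2). ZNFX1, a zinc finger helicase gene, starts 248 bases from the annotated start of ZFAS1 and rose from 187 ± 11.5 to 516 ± 38.1 CPM (SD, n = 2; 1.46 log2 units, edgeR adjusted p = 2.13e-08), while ZFAS1 fell. ZNFX1 and ZFAS1 share 249 exon bases on opposite strands, and whether the counting used strand is not given in the sources used here. ZBTB37, beside GAS5, was at 0.27 (adjusted p = 0.282, edgeR).

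The profile most like that of SNHG1, the member with the most counts, was sought among 9237 genes outside the lists with a mean of at least 10 CPM. Likeness was the root mean square difference of centred log2(CPM + 0.5) over the 4 samples. KRT80, an epithelial keratin gene, was nearest at 0.0287, followed by PIF1, a helicase gene, at 0.0288 and the cyclin D1 gene CCND1 at 0.0298. FRMD6 (0.0430) and MAOA (0.0464) came next. With 4 samples in 2 groups, this likeness is largely set by the log2 fold change, which lay between -1.34 and -1.25 in these genes and at -1.27 in SNHG1.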

How the data were processed

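RNA of 4 HCC1954 samples (2 shCON, 2 shZDHHC15) was sequenced from NEBNext Ultra libraries. The authors deposited raw counts of reads per gene, not normalized. The submitters' processing notes name HISAT2, StringTie, SAMtools and hg38. The counting tool, annotation and use of strand are not given in the sources used here. All 58735 gene identifiers were found in GENCODE 29 on GRCh38, and the gene length column equalled the merged exon length in 58724. No column of per-sample values was left unused. Replicates of a group differed by more than counting noise (chi-square per degree of freedom 8.32 and 6.79). They were therefore not taken for repeat counts of the same library, and all 4 samples were kept. This spread is not a check of sample quality.

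Genes passing filterByExpr were fitted with edgeR 4.0.16 (R 4.3.3) using TMM factors and its quasi-likelihood functions glmQLFit (legacy = FALSE) and glmQLFTest. P-values were adjusted by Benjamini-Hochberg over 15817 genes, with a threshold of 0.05. Standard errors came from the fold change and F. The second scale used the summed counts of 79 ribosomal protein genes as the library size. With 2 against 2 samples the smallest two-sided permutation p is 0.333, and the p-values rest on a spread shared among genes. The steps were tested on simulated data in which no ribosomal protein gene was made to change. That test therefore does not check the second scale where the ribosomal protein total itself falls. Named genes were all members, the targeted gene and the nearest neighbour of each member on the other strand within 2000 bases. The nearest 5 profiles were named too, and from each list the 2 highest and 2 lowest changes among the genes called. A gene that this rule names is not reported here. EEF1A1, FBL, LARP1, UPF1, EEF1G, MCMDC2 and AP002990.1 were named after their values were seen. The members and lists were chosen with earlier results of these data known. Floors of 3 counts cover counting error only.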

Additional observations from a re-analysis of the deposited data

How the results depend on the processing

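The 9 host genes kept their direction under all 12 alternatives (upper-quartile, DESeq2-type or no scaling factors beyond library size, the Wald test of DESeq2 1.42.0, a filter of 10 counts per sample or none, the replicate block, the legacy dispersion, and leaving out each sample), and 8 or 9 were called lower in each, the exception being SNHG16. Leaving out a sample puts 1 in a group, which is assumed to vary like the others. The members' median then lay between -1.12 and -0.85, and that of ribosomal protein genes between -0.56 and -0.33, with 52 to 74 of them lower. Members differing from the ribosomal protein total numbered 8 with the ribosomal protein median as reference (SNHG12, SNHG15 and ZFAS1 added), 7 with the replicate block (SNHG12 and ZFAS1 added), and 3 to 6 with a sample left out (SNHG12 added without shCON replicate 2). SNHG16 relative to that total was between -0.056 (without shCON replicate 2) and 0.28 with a sample left out. The median of TOP regulators was -0.0082 with upper-quartile factors and lay between -0.038 (without shZDHHC15 replicate 1) and 0.045 with a sample left out. The cause of these shifts was not tested. Same-numbered samples did not deviate together (correlation 0.0344 over 15817 genes), so the numbers were not treated as pairs. The replicate block called 7225 genes in place of 6644, 9 host genes lower and 71 ribosomal protein genes lower. Genes called over the table ranged from 4632 to 7225.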
